A study of Homo sapiens with 18 samples.

Results

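The genes described here carry the mRNAs of the mitogen-activated protein kinase (MAP kinase) cascade and of the dual-specificity phosphatases (DUSPs), measured in astrocytoma cells under acute oxidative stress. Members were the genes whose platform symbol starts with MAPK, MAP2K, MAP3K, MAP4K or DUSP followed by a digit, taken where a transcript cluster (the exon array's unit for a gene) carried that symbol alone. There were 57 such genes among 14232 genes with a cluster of a single symbol: 31 kinases, 21 DUSPs and 5 associated genes, namely MAPK1IP1L, MAPK8IP2, MAPK8IP3, MAP3K7CL and the pseudogene DUSP5P1. Membership was set by gene name, but the gene family was chosen with earlier results of these data known. A further 15 clusters that matched but named several genes were left out, which removed MAP2K1, MAP2K2, MAP2K4, MAPK12, DUSP15 and DUSP18 among others.

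The cells were U251-MG, a human astrocytoma line, exposed to 500 µM arsenite, a thiol-reactive agent that inhibits translation and induces stress granules, or to the vehicle DMSO (dimethyl sulfoxide), with RNA taken after 30 min. From both conditions total RNA (the input) and RNA immunoprecipitates (RIPs) of TIAR and of G3BP1 were hybridised, so that 3 biological replicates of each of 6 groups gave 18 arrays. Each of these 3 fractions was thus taken from DMSO cells and from arsenite cells, and the sample names write the TIAR antibody as "Tial", after its gene TIAL1. TIAR and G3BP1 are RNA-binding proteins that enter stress granules, cytoplasmic assemblies of untranslated mRNA. The comparisons ask which mRNAs each protein held, with and without granules. A RIP array gives the make-up of what the antibody recovered, not the amount of RNA recovered, and no precipitate with a control antibody was analysed here.

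The MAP kinase cascade passes a signal through tiers of kinases. A MAP4K or a small GTPase activates a MAP3K, which phosphorylates a MAP2K, which phosphorylates a terminal MAPK of the ERK, JNK, p38 or ERK5 branch. DUSPs remove the activating phosphates from the terminal kinases. Several DUSP genes are immediate early genes, transcribed within minutes of the stimulus that activates the kinase, and arsenite is a classical activator of the JNK and p38 branches.

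Promoters of 3 members are shown because their mRNAs stood at the ends of the arsenite response in total RNA: DUSP1 was the only member that rose, and DUSP16 and MAP4K4 were among the members that fell most. Each sequence is the 250 bases before the annotated start from RefSeq (GRCh38.p14), 5′ to 3′ on the gene's strand, and capitals mark matches on either strand to any of these motifs: the cAMP response element TGACGTCA and its core TGACG; the AP-1 element, which reads TGAGTCA; the CArG box; and TATAAA.
DUSP1 promoter, chr5:172771196-172771445, minus strand: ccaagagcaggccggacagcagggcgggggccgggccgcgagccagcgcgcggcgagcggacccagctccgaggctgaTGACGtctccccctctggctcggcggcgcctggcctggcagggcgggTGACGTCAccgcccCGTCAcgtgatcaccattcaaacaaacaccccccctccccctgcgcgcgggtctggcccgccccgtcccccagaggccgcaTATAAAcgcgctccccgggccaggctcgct
DUSP16 promoter, chr12:12562864-12563113, minus strand: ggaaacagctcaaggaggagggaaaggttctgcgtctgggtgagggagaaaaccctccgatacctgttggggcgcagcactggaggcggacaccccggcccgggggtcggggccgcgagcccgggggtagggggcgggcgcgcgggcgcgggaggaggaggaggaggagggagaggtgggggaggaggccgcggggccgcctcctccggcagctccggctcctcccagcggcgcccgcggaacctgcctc
MAP4K4 promoter, chr2:101697457-101697706, plus strand: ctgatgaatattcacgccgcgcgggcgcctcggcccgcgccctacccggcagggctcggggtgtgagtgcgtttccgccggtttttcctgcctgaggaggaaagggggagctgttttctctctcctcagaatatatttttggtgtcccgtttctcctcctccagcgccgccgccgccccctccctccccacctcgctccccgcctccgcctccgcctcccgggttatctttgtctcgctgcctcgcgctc
The DUSP1 window held a full TGACGTCA at bases -125 to -118 before the start, TGACG cores at -172 to -168 and -111 to -107 beside the pair inside the full element, and TATAAA at -30 to -25. The DUSP16 and MAP4K4 windows held none of these letters. RefSeq promoters of 300 bases (250 before and 50 after the start) were held for 50 of the 57 members and for 27305 genes in all. TGACGTCA was in 5 of the 50 (DUSP1, DUSP8, MAP3K13, MAPK10 and MAPK8IP3) and in 1.98% of all promoters. TGACG, which lies inside it, was in 16 of 50 against 25% of all. TATAAA was in DUSP1 alone of the 50 against 12% of all, TGAGTCA in MAP2K3 alone against 4.92%, TGACNNNGC in 7 against 13.6%, and the CArG box in none of the 50 against 1.29%. DUSP8 and MAP3K13 carry TGACGTCA as DUSP1 does, and their mRNAs fell in total RNA. Whether the element had a part in any of these changes was not tested.

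All values are log2 signals after robust multi-array averaging (RMA), ranging from 1.64 to 14.53 over 22011 transcript clusters, and the number of arrays limits their precision. Within groups the arrays correlated at 0.98 to 0.995 on average. Input arsenite replicate 1 and G3BP1 RIP DMSO replicate 3 stood apart from their groups, with upper quartiles of 9.17 and 9.45 against 9.54 to 9.57 and 9.92 to 9.94 on the other arrays of those groups. A called value that moved by over 1.5 times or lost its call without both is given in both ways, or its loss stated, where it is named. Counts of members without these arrays or under other settings are given without the share of all clusters in the same fit. Shifts in such counts are not read as particular to the members. Of the astrocyte and glioma marker list, 11 of 12 genes were measured, with list means of 8.84 to 8.85 in the DMSO inputs and 8.95 to 9.09 in the arsenite inputs. The astrocyte list ran from AQP4 (4.78 over all arrays) and S100B (4.92) through GFAP (8.63) to VIM (12.97). The 5 measured neuron genes ran from SNAP25 (6.79) to SYT1 (9.71), the 5 myeloid genes from PTPRC (3.65) to CD68 (9.56), the 5 epithelial genes from EPCAM (3.41) to KRT8 (11.93), and the 4 oligodendrocyte genes from MOG (6.32) to OLIG2 (7.29). Differences below are log2 changes with their standard errors (SE) from limma, 3 arrays a group, and a gene was called where its p adjusted over all clusters was under 0.05.

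In total RNA, arsenite lowered kinase mRNAs in every tier of the cascade and 4 DUSP mRNAs, while the DUSP mRNA DUSP1 rose. Of the 57 members 20 were called lower and 1 higher, against 11.2% and 2.52% of all clusters. The median change was -0.34 over the 31 kinases, 16 of them lower and none higher. Over the 21 DUSPs it was -0.13, with 4 lower and 1 higher, and over all clusters -0.03. With each array centred on its median, or after quantile normalization, the kinase median was -0.25 in both and the DUSP median -0.04 and 0.03, so the sign of the latter depends on the scaling. None of the 5 associated genes was called. No called member had overlapping groups, but the share of all called clusters without overlap was not counted.

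Of the MAP4K tier, the kinases that feed stress and cytokine signals into the cascade, 2 of 3 fell. MAP4K4, which acts upstream of JNK, had log2 signals of 9.70, 9.64 and 9.71 with DMSO and of 8.25, 8.93 and 8.98 with arsenite. Every arsenite array lay below every DMSO array, the first of them by the most. The change was -0.97 ± 0.17, a 1.95-fold drop (adjusted p = 0.00168). MAP4K5, a second germinal-centre-type kinase, went from 10.28, 10.04 and 10.16 to 8.94, 9.61 and 9.66 in log2 signal, a change of -0.76 ± 0.21 (adjusted p = 0.0249) that was not called without arsenite replicate 1 or DMSO replicate 1 or 3. MAP4K1, typical of blood cells, was not called.

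Among the 15 MAP3Ks, 9 fell, and the median change was -0.49. MAP3K2 and MAP3K3 (MEKK2 and MEKK3), which feed the ERK5 branch, both did. MAP3K2 went from log2 signals of 9.99, 9.93 and 10.01 to 8.33, 9.38 and 9.30. Its change was -0.98 ± 0.27 (adjusted p = 0.0266), and it was no longer called without arsenite replicate 1 or without any one of the DMSO arrays. Its change was -0.64 (adjusted p = 0.0165) without both arrays that stood apart, and that of MAP4K4 -0.73. MAP3K3 changed by -0.73 ± 0.15 (adjusted p = 0.00514). MAP3K4 (MEKK4), which drives p38 and JNK, went from 9.59, 9.68 and 9.66 to 8.49, 9.07 and 9.11 in log2 signal, a change of -0.75 ± 0.15 (adjusted p = 0.00392). All 3 stress arrays were again below the DMSO arrays.

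MAP3K7 (TAK1), the kinase of interleukin-1 and TGF-beta signalling, had log2 signals of 10.04, 9.92 and 10.01 without and of 8.98, 9.46 and 9.64 with arsenite, a change of -0.63 ± 0.17 (adjusted p = 0.0225). MAP3K20 (ZAK), the sensor of stalled ribosomes, went from 8.14, 8.01 and 8.04 to 6.83, 7.61 and 7.69, a log2 change of -0.69 ± 0.22 (adjusted p = 0.0484). Without both arrays that stood apart its change was -0.41 and its adjusted p 0.0575. With the replicate number as a block MAP3K20 was not called either (adjusted p = 0.0765). MAP3K5 (ASK1), the oxidant-sensing kinase, had log2 signals of 7.50, 7.43 and 7.56 and then of 6.46, 7.24 and 7.21. Its groups did not overlap either, but the change of -0.53 ± 0.25 did not pass the test (adjusted p = 0.189). Of the mixed-lineage kinases, MAP3K13 (LZK) changed by -0.71 ± 0.20 (adjusted p = 0.0253), MAP3K11 (MLK3) by -0.49, MAP3K21 by -0.40 and MAP3K9 (MLK1) by -0.34, all called, and MAP3K10 and MAP3K12 (DLK) were not. MAP3K13 lost its call without arsenite replicate 1 or 3 or DMSO replicate 2 or 3, and MAP3K9 lost its call under median centring and quantile normalization.

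MAP2K3, the p38-activating kinase, was the 1 of 3 MAP2Ks called. Its log2 signals were tight with DMSO, at 9.36, 9.35 and 9.37, and lower with arsenite, at 8.53, 8.69 and 8.88. The change was -0.66 ± 0.12 (adjusted p = 0.00191). At the terminal tier both widely expressed JNK genes fell. MAPK8 (JNK1) went from 10.49, 10.41 and 10.41 to 9.25, 9.89 and 9.81 in log2 signal, a change of -0.78 ± 0.18 (adjusted p = 0.00832). MAPK9 (JNK2) went from 10.68, 10.61 and 10.62 to 9.31, 10.11 and 10.04, a log2 change of -0.82 ± 0.19 (adjusted p = 0.0102). For both JNK mRNAs the lowest array was arsenite replicate 1, and the other 2 still lay below all DMSO arrays. The atypical MAPK6 (ERK3) changed by -0.57 ± 0.08 (adjusted p = 0.000328) and MAPK7 (ERK5) by -0.29 ± 0.07 (adjusted p = 0.0151). MAPK3 (ERK1) had log2 signals of 11.19, 11.16 and 11.17 and then of 10.84, 10.92 and 11.02, without overlap, but its change of -0.25 ± 0.14 was not called (adjusted p = 0.303).

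DUSP1 (MKP-1), the nuclear phosphatase of p38 and JNK, read 9.99, 10.12 and 9.93 in log2 signal with DMSO and 10.48, 10.99 and 10.98 with arsenite. Every arsenite array was above every DMSO array. The change of 0.80 ± 0.13 was a 1.75-fold rise (adjusted p = 0.000796). The JNK phosphatase DUSP16 (MKP-7) went the other way, from 8.39, 8.38 and 8.38 to 7.30, 7.80 and 7.78, a log2 change of -0.76 ± 0.12 (adjusted p = 0.000988). DUSP8, also a JNK and p38 phosphatase, fell from 9.69, 9.75 and 9.73 to 8.97, 9.08 and 9.33, a log2 change of -0.60 ± 0.09 (adjusted p = 0.000457). DUSP3 (VHR), a small atypical phosphatase of ERK and JNK, changed by -0.73 ± 0.13 (adjusted p = 0.00223), and the cytoplasmic ERK phosphatase DUSP7 by -0.57 ± 0.09 (adjusted p = 0.000759).

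No other inducible nuclear DUSP was called. DUSP2 read 8.28, 8.37 and 8.30 in log2 signal and then 8.82, 8.49 and 8.42, higher on every arsenite array, with a change of 0.26 ± 0.10 (adjusted p = 0.109). DUSP4 (MKP-2) read 8.34, 8.30 and 8.26 and then 8.05, 8.21 and 8.15 in log2 signal, a change of -0.17 ± 0.09 (adjusted p = 0.273). The ERK phosphatase DUSP5 read 9.07, 9.10 and 9.19 and then 8.91, 8.91 and 9.02, a log2 change of -0.17 ± 0.11 (adjusted p = 0.337). The ERK feedback phosphatase DUSP6 read 7.93, 7.81 and 7.84 and then 7.67, 7.87 and 8.04, overlapping, with a log2 change of 0.00 ± 0.16 (adjusted p = 0.991). DUSP10 (MKP-5), a p38 and JNK phosphatase, read 8.75, 8.86 and 8.75 and then 7.75, 8.57 and 8.53. Its log2 change of -0.50 ± 0.21 was not called (adjusted p = 0.129), and replicate 1 was the lowest array by far.

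Without both arrays that stood apart, 19 members were lower and 1 higher in total RNA, 15 of the lower ones kinases. In bulk RNA, fewer cells that hold an mRNA and less of it per cell cannot be told apart.

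**Figure D1:**
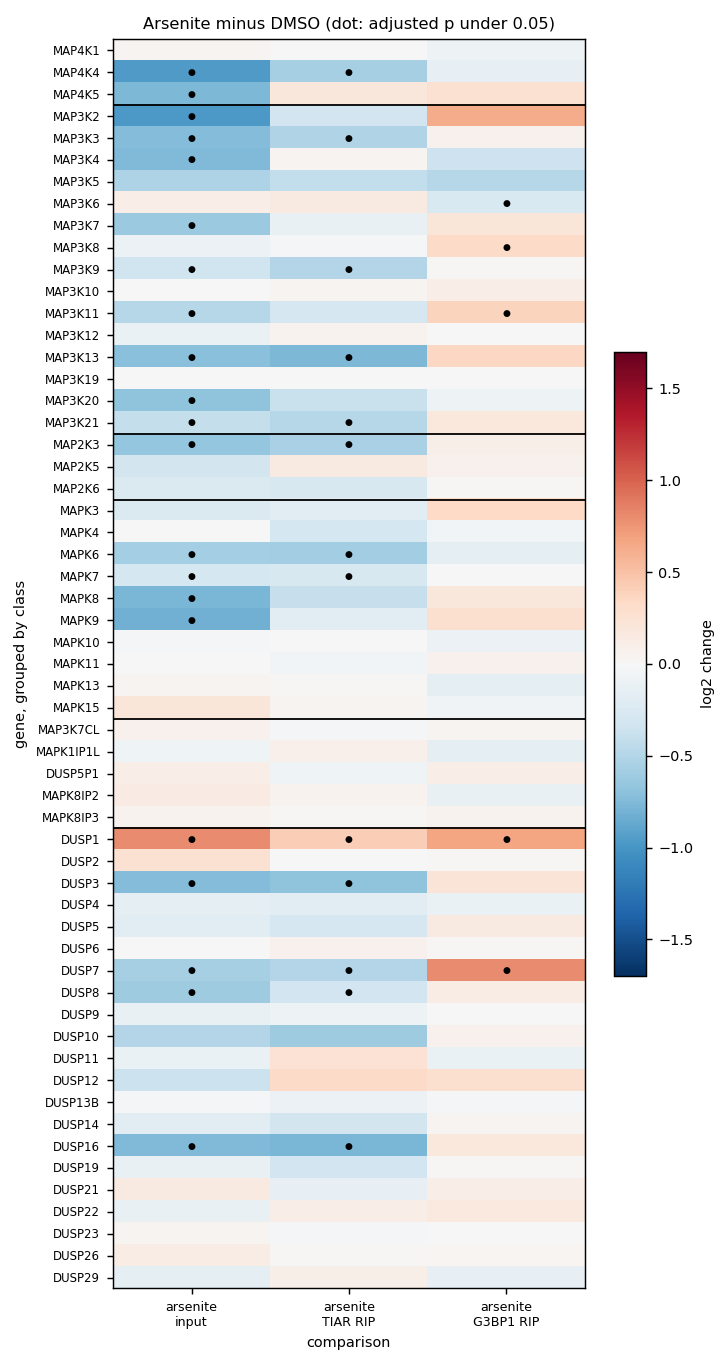
Log2 change, arsenite minus DMSO, of each of the 57 members (vertical axis, grouped as MAP4K, MAP3K, MAP2K, MAPK, associated genes and DUSPs between the lines) in input, TIAR RIP and G3BP1 RIP (horizontal axis). Colour gives the change from blue (lower) to red (higher), a dot marks an adjusted p under 0.05, and the input column holds 20 dots on lower and 1 on higher values.

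Within the TIAR RIP 8 kinase and 4 DUSP mRNAs fell, and DUSP1 again rose. Of 57 members 12 were lower and 1 higher with arsenite, against 5.71% and 6.15% of all clusters. By class, 8 of 31 kinases were called lower, with 23 of 31 below 0 (24 in input; median change -0.19), as were 4 of 21 DUSPs (median -0.10), while 1 DUSP was higher and the median over all clusters was -0.00. All 12 lower members were also lower in input, which is 60% of the 20 called there. The comparisons share no array but do share the estimate of the spread from all arrays. The overlap of calls over all clusters was not counted. No called member had overlapping groups, again without a count over all called clusters.

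DUSP16 had the largest drop in the TIAR RIP, from log2 signals of 9.02, 8.88 and 8.87 to 8.19, 8.09 and 8.15, and its change of -0.78 ± 0.12 (adjusted p = 0.00065) was close in size to that in input. DUSP3 changed by -0.68 ± 0.13 (adjusted p = 0.00329), and DUSP7 from 13.20, 13.25 and 13.20 to 12.89, 12.72 and 12.54, a log2 change of -0.50 ± 0.09 (adjusted p = 0.00152). DUSP8 read 9.59, 9.47 and 9.56 and then 9.20, 9.10 and 9.31, a log2 change of -0.33 ± 0.09 (adjusted p = 0.0217) that was not called after quantile normalization. DUSP1 read 9.95, 10.01 and 10.01 in log2 signal with DMSO and 10.51, 10.41 and 10.30 with arsenite. The groups did not overlap and the change was 0.41 ± 0.13 (adjusted p = 0.0472). That call was lost when any of 13 of the 18 arrays was left out.

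Among the kinases in the TIAR RIP, MAPK6 had the smallest adjusted p, going from log2 signals of 12.19, 12.19 and 12.23 to 11.62, 11.45 and 11.74, a change of -0.60 ± 0.08 (adjusted p = 0.000189). MAP2K3 read 9.19, 9.05 and 9.04 and then 8.51, 8.60 and 8.50, a log2 change of -0.55 ± 0.12 (adjusted p = 0.00583). MAP3K13 changed by -0.76 ± 0.20 (adjusted p = 0.0182), MAP3K9 by -0.50 ± 0.07 (adjusted p = 0.000374) and MAP3K21 by -0.48 ± 0.08 (adjusted p = 0.0009). These 3 are kinases of the mixed-lineage group. MAP4K4 read 9.93, 9.86 and 9.71 and then 9.47, 9.07 and 9.24, a log2 change of -0.57 ± 0.17 (adjusted p = 0.0401), and MAP3K3 changed by -0.51 ± 0.15 (adjusted p = 0.0418). The call of MAP4K4 was lost when any of 11 arrays was left out, that of MAP3K3 when any of 13 was, and that of MAP3K13 without DMSO replicate 1 or 2 or arsenite replicate 2 of the TIAR RIP.

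The JNK mRNAs were not called in the TIAR RIP. MAPK8 read 11.16, 11 and 10.86 with DMSO and 10.65, 10.40 and 10.78 with arsenite, a log2 change of -0.40 ± 0.18 (adjusted p = 0.202). MAPK9 read 11, 10.81 and 10.68 and then 10.85, 10.38 and 10.73, overlapping. MAP3K7 read 10.52, 10.40 and 10.16 and then 10.40, 10.14 and 10.16, and MAP3K20 8.98, 8.90 and 8.66 and then 8.65, 8.13 and 8.63. The groups of MAP3K7 overlapped, those of MAP3K20 were next to each other, and neither was called. MAP3K5 read 7.88, 7.76 and 7.49 and then 7.50, 7.02 and 7.35, a log2 change of -0.42 ± 0.25 (adjusted p = 0.389). MAPK3 read 10.59, 10.71 and 10.68 and then 10.48, 10.53 and 10.38, a log2 change of -0.19 ± 0.14 (adjusted p = 0.549).

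Of the DUSPs not called, DUSP10 read 9.93, 9.90 and 9.68 in log2 signal and then 9.37, 9.07 and 9.24. The groups did not overlap, but its change of -0.61 ± 0.21 missed the threshold (adjusted p = 0.0724). DUSP4 read 8.54, 8.31 and 8.41 and then 8.24, 8.26 and 8.23, DUSP5 9.04, 8.90 and 8.87 and then 8.61, 8.64 and 8.69, and DUSP6 7.89, 7.74 and 7.73 and then 7.88, 7.96 and 7.75. DUSP4 and DUSP5 were lower on every arsenite array without passing the test, and DUSP6 overlapped.

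The number of TIAR RIP calls moved with single arrays. It was 7 without DMSO replicate 1 of the TIAR RIP, 8 without its DMSO replicate 3 or its arsenite replicate 2, and 22 (2 higher, 20 lower) without both arrays that stood apart, none of which is a TIAR array but which enter the shared estimate of the spread. That estimate serves all clusters, whose share called in these fits is not given here.

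In the G3BP1 RIP DUSP7, DUSP1 and 2 kinase mRNAs rose, and 1 kinase mRNA fell. Of 57 members 4 were higher and 1 lower with arsenite, against 10.4% and 4.08% of all clusters. The median change was 0.02 over kinases, 0.05 over DUSPs and 0.01 over all clusters. With median centring and with quantile normalization the split was 4 higher and 3 lower and the medians were -0.04 and -0.00 over kinases and -0.01 and -0.00 over DUSPs, so their sign depends on the scaling.

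DUSP7 read 11.47, 11.53 and 11.57 in log2 signal with DMSO and 12.36, 12.33 and 12.29 with arsenite. Both groups were tight and far apart, with a change of 0.80 ± 0.09, a 1.75-fold rise (adjusted p = 3.71e-05). DUSP7 therefore fell in input and in the TIAR RIP and rose in the G3BP1 RIP. DUSP1 read 10.51, 10.64 and 10.29 and then 11.17, 11.24 and 11.04, a log2 change of 0.67 ± 0.13 (adjusted p = 0.00218). It is the only member called higher with arsenite in all 3 fractions.

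MAP3K11 went from log2 signals of 9.56, 9.59 and 9.34 to 9.97, 9.90 and 9.76, a change of 0.38 ± 0.10 (adjusted p = 0.0179). MAP3K8 (TPL2), the kinase of ERK activation by inflammatory signals, went from 6.99, 6.98 and 6.81 to 7.34, 7.22 and 7.21, a log2 change of 0.33 ± 0.07 (adjusted p = 0.0053). MAP3K6 (ASK2), the partner of ASK1, was the member called lower, from 9.54, 9.55 and 9.29 to 9.24, 9.25 and 9.11, a log2 change of -0.26 ± 0.08 (adjusted p = 0.0406). The highest arsenite arrays of MAP3K6 lay just under the lowest DMSO array, and the call was lost when any of 12 arrays was left out. For MAP3K11 it was lost without DMSO replicate 3 or without arsenite replicate 1 or 2.

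MAP4K4 read 10.42, 10.25 and 9.91 with DMSO and 10.06, 10.09 and 10.00 with arsenite in the G3BP1 RIP, MAPK8 10.37, 10.27 and 9.71 and then 10.40, 10.23 and 10.30, and MAPK9 10.40, 10.40 and 9.89 and then 10.49, 10.55 and 10.45. In each of these 3 the DMSO array of replicate 3 was the lowest. MAP3K7 read 10.02, 10.05 and 9.46 and then 10.11, 9.99 and 10.03, MAP3K20 8.92, 8.92 and 8.31 and then 8.75, 8.59 and 8.52, and MAP2K3 9.74, 9.63 and 9.22 and then 9.72, 9.65 and 9.52. None of the 6 was called.

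MAP3K5 read 8.78, 8.71 and 7.76 and then 8.07, 7.86 and 7.85, so its DMSO group spanned its arsenite group through replicate 3. Its log2 change was -0.49 ± 0.25 (adjusted p = 0.241) with all arrays and -0.81 (adjusted p = 0.000717) without both arrays that stood apart. MAPK3 read 11.04, 11.06 and 10.33 and then 11.23, 11.15 and 11.06, a log2 change of 0.34 ± 0.14 (adjusted p = 0.149). Without both arrays 5 members were higher and 4 lower. The additions were MAPK11 (p38 beta; 0.17) among the higher and MAP3K4 (-0.48), MAP3K5 and MAPK1IP1L (-0.28) among the lower.

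The DUSPs other than DUSP1 and DUSP7 showed little. DUSP16 read 8.40, 8.43 and 8.13 in log2 signal and then 8.64, 8.45 and 8.40, DUSP8 10.18, 10.22 and 10.14 and then 10.33, 10.35 and 10.23, and DUSP10 9.03, 9.21 and 8.43 and then 9.03, 9.0 and 8.85. DUSP4 read 8.98, 8.86 and 8.64 and then 8.80, 8.76 and 8.59, DUSP5 8.83, 8.76 and 8.49 and then 8.98, 8.95 and 8.60, and DUSP6 8.56, 8.66 and 7.89 and then 8.57, 8.35 and 8.25. DUSP8 was slightly higher on every arsenite array, the other 5 overlapped, and none was called. The count of calls was 3 without arsenite replicate 1 or 2 of the G3BP1 RIP.

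**Figure D2:**
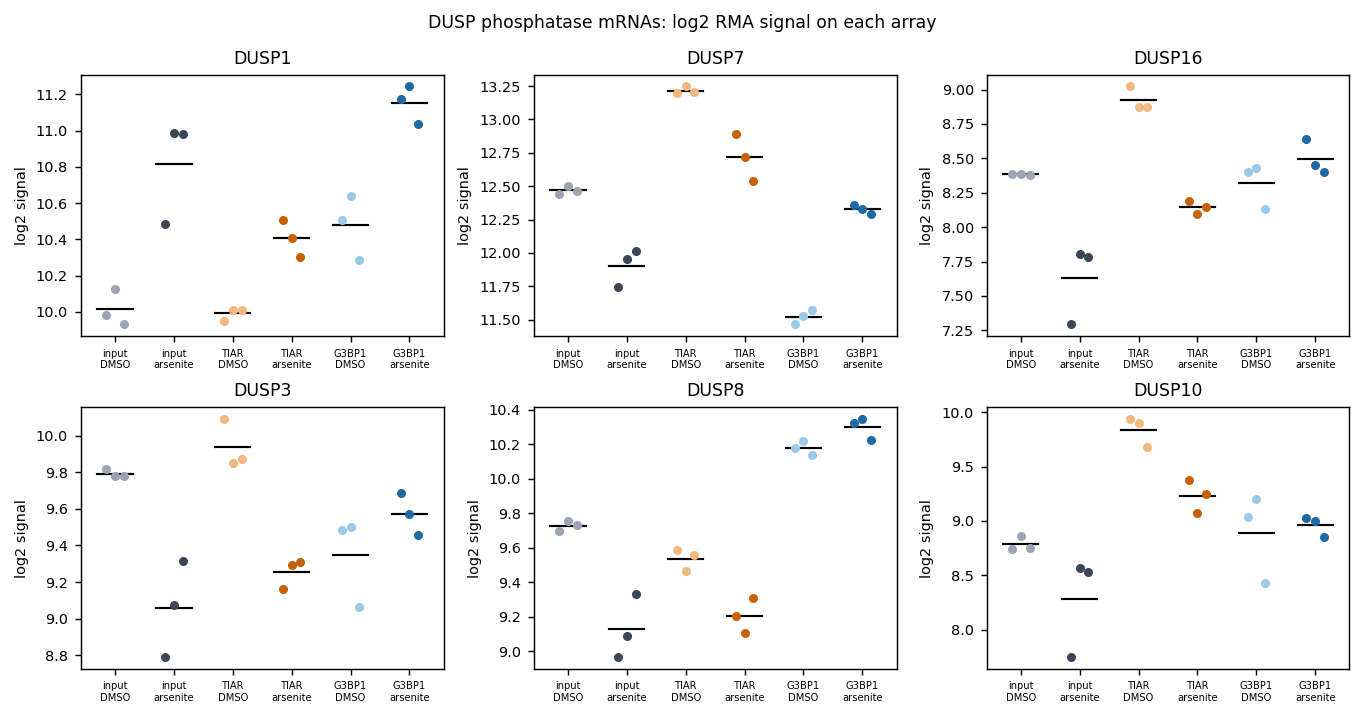
Log2 RMA signal (vertical axis, separate range for each gene) of DUSP1, DUSP7, DUSP16, DUSP3, DUSP8 and DUSP10 on each array of the 6 groups (horizontal axis). Points are arrays and lines are group means of 3. DUSP1 rises with arsenite in each fraction, while DUSP7 falls in input and TIAR RIP and rises in the G3BP1 RIP from 11.47 to 11.57 up to 12.29 to 12.36.

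Whether a RIP responded to arsenite otherwise than total RNA did was tested as the RIP's change minus the input's change, a difference of log2 changes. For TIAR no member was called by limma in either direction, against 0.604% of all clusters called higher and 0.05% lower, and 7 members had an unadjusted p under 0.05. The differences ranged from -0.39 for DUSP1 to 0.96 for MAP4K5, and MAP3K4 reached 0.80 ± 0.21 (adjusted p = 0.112). MAP4K5 changed by -0.76 in input and by 0.20 in the TIAR RIP, and MAP3K4 by -0.75 and 0.04. Without both arrays that stood apart 3 members were called: MAP4K5 (0.72, adjusted p = 0.0222), MAP3K4 (0.60, adjusted p = 0.0268) and DUSP1 (-0.56, adjusted p = 0.0217). Leaving out G3BP1 RIP DMSO replicate 3 alone gave 2 calls.

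For G3BP1 the same difference was called higher in 18 members and lower in 1, against 14.3% and 2.65% of all clusters. Of the 31 kinases 14 were higher and 1 lower (median 0.40), and of the 21 DUSPs 4 were higher and none lower (median 0.14), with a median of 0.05 over all clusters. The DUSP median was -0.01 with median centring and -0.06 after quantile normalization, the kinase median 0.25 under both. The contrast uses the same input arrays as the input comparison, so the changes of each fraction are given side by side. Of the 18 higher members 17 were called lower in input, and 3 were called higher in the G3BP1 RIP itself.

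MAP3K2 had a difference of 1.60 ± 0.39 (adjusted p = 0.00977), made of -0.98 in input and 0.63 in the G3BP1 RIP, where it read 9.20, 9.22 and 8.35 with DMSO and 9.67, 9.53 and 9.45 with arsenite. DUSP7 had 1.37 ± 0.13 (adjusted p = 1.2e-05), made of -0.57 and 0.80. Without both arrays that stood apart DUSP7 stood at 1.32 and MAP3K2 at 0.98 (adjusted p = 0.00952), so their order rests on those arrays. For both genes the fractions moved in opposite directions, and for DUSP7 both changes were called.

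Of the JNK mRNAs, which were called lower in input and not called in the G3BP1 RIP, MAPK9 had 1.09 ± 0.27 (adjusted p = 0.0125), made of -0.82 and 0.27, and MAPK8 0.98 ± 0.25 (adjusted p = 0.0141), made of -0.78 and 0.20. The upstream kinases MAP4K5 (1.02 ± 0.30, adjusted p = 0.0273) and MAP3K7 (0.83 ± 0.24, adjusted p = 0.0273) had changes of -0.76 and -0.63 in input and of 0.26 and 0.20 in the G3BP1 RIP. These 4 differences were smaller without both arrays that stood apart, at 0.66 for MAPK9, 0.58 for MAPK8, 0.52 for MAP4K5 and 0.45 for MAP3K7 (adjusted p = 0.0128, 0.0158, 0.0273 and 0.047). MAP3K13 had a difference of 1.06 ± 0.28 (adjusted p = 0.016), which was 0.70 (adjusted p = 0.0517) without both arrays that stood apart. MAP3K11, called in opposite directions in the fractions, had 0.87 ± 0.14 (adjusted p = 0.00071).

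Of the phosphatases, DUSP3 had a difference of 0.95 ± 0.19 (adjusted p = 0.00298) and DUSP16 of 0.93 ± 0.17 (adjusted p = 0.00197), with G3BP1 RIP changes of 0.22 and 0.18 that were not called. MAP3K6 was the member called lower, at -0.37 ± 0.11 (adjusted p = 0.0355), made of 0.11 in input and -0.26 in the G3BP1 RIP. The remaining 8 called members lay between 0.36 and 0.82. Of these MAP3K3 and MAP4K4, at 0.81 and 0.82, stood at 0.46 and 0.44 without both arrays, and MAP3K9 and MAPK6 were not called under either scaling. Without both arrays 19 members were higher and 2 lower.

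The test of the TIAR response against the G3BP1 response called 11 members lower, meaning a more negative change in the TIAR RIP, and 1 higher, against 8.55% and 5.05% of all clusters. DUSP7 stood at -1.30 ± 0.13 (adjusted p = 1.75e-05), with -0.50 in the TIAR RIP and 0.80 in the G3BP1 RIP. DUSP16 followed at -0.95 ± 0.17 (adjusted p = 0.00194) and DUSP3 at -0.90 ± 0.19 (adjusted p = 0.00501). MAP3K13 had -1.11 ± 0.28 (adjusted p = 0.0144), MAP3K21 -0.66 ± 0.11 (adjusted p = 0.00116), MAP3K11 -0.66 ± 0.14 (adjusted p = 0.00562) and MAP3K9 -0.51 ± 0.10 (adjusted p = 0.00369). These 4 mixed-lineage kinases were joined by MAP2K3 (-0.65 ± 0.17, adjusted p = 0.0169), MAPK6 (-0.43 ± 0.11, adjusted p = 0.0199) and DUSP8 (-0.45 ± 0.12, adjusted p = 0.0245), with MAP3K8 the smallest at -0.36. MAPK6 was not called under either scaling and DUSP8 not after quantile normalization. MAP3K6 was higher, at 0.41 ± 0.11 (adjusted p = 0.0249). Without both arrays that stood apart 16 members were lower and 4 higher.

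In DMSO cells the TIAR RIP held more of some kinase and DUSP mRNAs than total RNA and less of others. With DMSO 13 members were higher and 9 lower than in input, against 16.8% and 23.8% of all clusters. MAPK6 led, at 12.19, 12.19 and 12.23 in log2 signal against 11.06, 11.10 and 11.02 in input, a difference of 1.14 ± 0.08 or 2.20-fold (adjusted p = 2.64e-08). The TIAR arrays were all far above the input arrays. DUSP10 followed at 1.05 ± 0.21 (adjusted p = 0.000625), then MAP3K13 (0.86 ± 0.20, adjusted p = 0.00218) and MAPK1IP1L (0.86 ± 0.09, adjusted p = 2.28e-06). MAP3K20 stood at 0.78, DUSP19, an atypical phosphatase that acts on the JNK branch, at 0.76, DUSP7 at 0.75, MAPK8 at 0.57, DUSP16 at 0.54 and MAP3K21 at 0.49, all called.

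Lower in the TIAR RIP with DMSO were MAP3K4 (-0.72 ± 0.15, adjusted p = 0.00115), MAP3K11 (-0.60 ± 0.10, adjusted p = 0.000142) and MAPK3 (-0.51 ± 0.14, adjusted p = 0.00921). DUSP22, an atypical phosphatase, stood at -0.49, MAP3K6 at -0.45, the JNK scaffold MAPK8IP3 at -0.35, MAP3K10 at -0.29, MAP3K8 at -0.28 and DUSP26 at -0.20. None of the 22 called members had overlapping groups, which was not counted over all called clusters. Median centring raised the median of all clusters from -0.05 to 0.12 here and gave 21 higher and 5 lower, and quantile normalization 21 and 6. The low-fold calls of MAPK8IP3, MAP3K10 and DUSP26 were lost under both and that of MAP3K8 under median centring.

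With arsenite 19 members were higher and 11 lower in the TIAR RIP than in input, against 20.3% and 23.5% of all clusters. MAP3K2 stood at 1.22 ± 0.27 (adjusted p = 0.00187), from log2 signals of 10.55, 9.87 and 10.23 against 8.33, 9.38 and 9.30. MAPK6 had 1.12 ± 0.08 (adjusted p = 5.72e-08), MAP3K20 1.10 ± 0.22 (adjusted p = 0.000727) and MAPK1IP1L 1.01 ± 0.09 (adjusted p = 5.65e-07). MAPK8 and MAPK9 stood at 0.96 and 0.83, DUSP10 at 0.95, MAP4K5 and DUSP12 both at 0.89 and MAP3K7 at 0.88, all called. With both outlying arrays dropped MAP3K2 was at 0.88, below MAPK6 at 1.11, and DUSP12 at 0.56. DUSP12 is an atypical phosphatase with a zinc-binding domain.

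On the lower side with arsenite were MAPK3 (-0.46 ± 0.14, adjusted p = 0.017) and DUSP1 (-0.41 ± 0.13, adjusted p = 0.016), then MAP3K6 at -0.41, DUSP21 at -0.40, MAP3K11 at -0.39, MAPK8IP3 at -0.38, DUSP26 at -0.31, DUSP5 at -0.30, DUSP2 at -0.27 and DUSP22 at -0.25. The groups of DUSP1, DUSP19 and DUSP21 overlapped, and the call of DUSP2 was lost under each scaling, with arrays weighted and with both outlying arrays dropped, and DUSP19 was not called with them dropped. Of the members higher than input, 11 were called with and without arsenite (84.6% of 13 and 57.9% of 19), and of the lower, 7 (77.8% of 9 and 63.6% of 11). The 11 were DUSP7, DUSP10, DUSP16, DUSP19, MAP3K13, MAP3K20, MAP3K21, MAPK1IP1L, MAPK6, MAPK7 and MAPK8. With median centring the arsenite split was 23 higher and 8 lower.

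**Figure D3:**
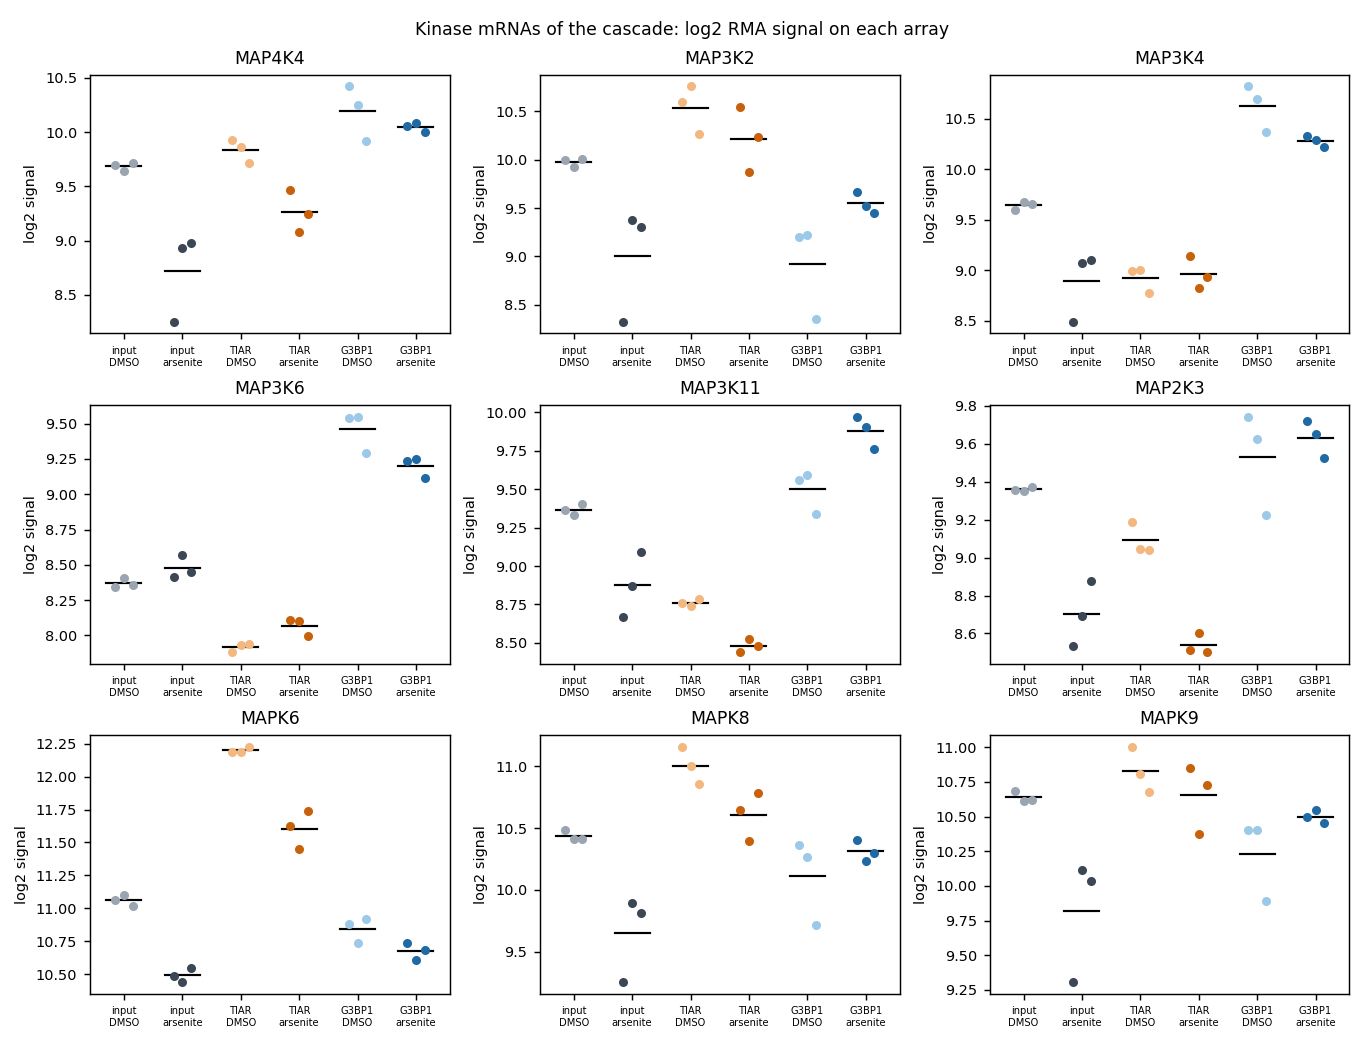
Log2 RMA signal (vertical axis, separate range for each gene) of 9 kinase mRNAs on each array of the 6 groups (horizontal axis). Points are arrays and lines are group means of 3. By group mean within each condition MAPK6 is highest in the TIAR RIP and MAP3K4, MAP3K6 and MAP3K11 in the G3BP1 RIP, and input arsenite replicate 1 is the lowest array of MAP4K4, MAP3K2, MAP3K4, MAPK8 and MAPK9.

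In DMSO cells the G3BP1 RIP held more of several MAP3K mRNAs than total RNA, and less of MAP3K2 and DUSP7. With DMSO 15 were higher and 7 lower than in input, against 20.7% and 19.2% of all clusters. MAP3K12 (DLK), a kinase best known from neurons, led with log2 signals of 9.07, 9.04 and 8.43 against 7.82, 7.71 and 7.61 in input, a difference of 1.13 ± 0.13 (adjusted p = 5.53e-06). Both ASK genes were higher, MAP3K6 by 1.09 ± 0.08 (adjusted p = 5.74e-08) and MAP3K5 by 0.92 ± 0.25 (adjusted p = 0.00731). MAP3K4 stood at 0.99, DUSP12 at 0.96, MAPK7 at 0.93 and MAP3K20 at 0.65, all called.

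The immediate early DUSP4 read 8.98, 8.86 and 8.64 in the G3BP1 RIP against 8.34, 8.30 and 8.26 in input, a log2 difference of 0.53 ± 0.09 (adjusted p = 0.000266). DUSP6 stood at 0.51 with overlapping groups, and DUSP11, an RNA 5′-phosphatase rather than a MAP kinase phosphatase, at 0.52. Lower in the G3BP1 RIP were MAP3K2 (-1.05 ± 0.27, adjusted p = 0.00568), DUSP7 (-0.95 ± 0.09, adjusted p = 6.75e-07) and DUSP3 (-0.44 ± 0.13, adjusted p = 0.0155). DUSP5 stood at -0.43, DUSP22 at -0.26, MAPK1IP1L at -0.25 and MAPK6 at -0.22. MAPK1IP1L was no longer called without both arrays that stood apart (-0.14), DUSP3 and DUSP22 not without G3BP1 RIP DMSO replicate 3, and MAPK6 not under either scaling. The calls of MAP3K20, DUSP6 and DUSP11 were lost without input DMSO replicate 2 or 3 or G3BP1 RIP DMSO replicate 1 or 2. After quantile normalization the split was 16 higher and 12 lower, and without input DMSO replicate 3 only 14 members were called.

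With arsenite 31 of the 57 members were higher in the G3BP1 RIP than in input and 2 lower, against 29.3% and 15.2% of all clusters. By tier 12 of 15 MAP3Ks, 3 of 3 MAP2Ks, 2 of 3 MAP4Ks and 3 of 10 MAPKs were higher. The median difference was 0.58 over kinases, with 20 of 31 higher and 1 lower, and 0.33 over DUSPs, with 11 of 21 higher, against 0.03 over all clusters. Median centring moved the median of all clusters to -0.14 and gave 29 higher and 9 lower, and quantile normalization 29 and 8. Under both the kinases had 20 higher, and the kinase medians were 0.41 and 0.30.

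DUSP12 led with log2 signals of 11.11, 11.22 and 11.04 against 8.88, 9.92 and 9.81, a difference of 1.58 ± 0.22 or 3.00-fold (adjusted p = 3.1e-05). MAP3K4 had 1.39 ± 0.15 (adjusted p = 2.63e-06), MAP4K4 1.33 ± 0.17 (adjusted p = 1.34e-05) and MAP3K3 1.30 ± 0.15 (adjusted p = 6.33e-06). MAP3K20 stood at 1.25, MAP3K12 at 1.24, MAPK7 at 1.21 ± 0.07 (adjusted p = 1.07e-08), DUSP8 at 1.17, MAP3K11 at 1.00 and MAP3K13 at 0.96. MAPK1IP1L and MAPK15, an atypical kinase, were lower, both at -0.35. This comparison and the arsenite comparison in total RNA share the stressed input arrays, in which MAP4K4, MAP3K4 and MAP3K3 had fallen by 0.97, 0.75 and 0.73. In the G3BP1 RIP itself the changes of these 3 genes with arsenite were not called. The 15 members higher with DMSO were all higher with arsenite too, 48.4% of the 31.

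Set against each other, the RIPs differed in some kinase and DUSP mRNAs, as they did in many other clusters. With DMSO 14 members (24.6%) were higher in the TIAR RIP and 19 (33.3%) in the G3BP1 RIP, against 19.3% and 27.5% of all clusters. Higher with TIAR were DUSP7 (13.20, 13.25 and 13.20 against 11.47, 11.53 and 11.57 in log2 signal, a difference of 1.69 ± 0.09, adjusted p = 4.93e-10), MAP3K2 (1.62 ± 0.27, adjusted p = 0.000122) and MAPK6 (1.36 ± 0.08, adjusted p = 1.69e-09). MAPK1IP1L stood at 1.11, DUSP19 at 1.01, MAP3K13 at 0.96, DUSP10 at 0.95, MAPK8 at 0.89, DUSP14 at 0.81 (0.50 without both arrays that stood apart) and DUSP16 at 0.60. These include phosphatases of the ERK and of the JNK branch.

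Higher with G3BP1 in DMSO cells were MAP3K4 (10.82, 10.69 and 10.37 against 8.99, 9.0 and 8.78, a log2 difference of TIAR minus G3BP1 of -1.71 ± 0.15, adjusted p = 1.38e-07), MAP3K6 (-1.54 ± 0.08, adjusted p = 4.21e-10) and MAP3K12 (-1.30 ± 0.13, adjusted p = 5.82e-07). DUSP12 stood at -0.75, MAP3K11 at -0.74, MAP3K5 at -0.71, DUSP8 at -0.64, DUSP6 at -0.59, MAPK7 at -0.50 and DUSP1 at -0.49. Of these only MAP3K5 and DUSP6 had overlapping groups, as did MAP3K3 among the other called members, each through G3BP1 RIP DMSO replicate 3, and MAP3K5 was not called after quantile normalization. The split was 20 and 13 with median centring and 17 and 12 after quantile normalization.

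With arsenite 5 members were higher in the TIAR RIP and 23 in the G3BP1 RIP, against 15.6% and 28.7% of all clusters. The 5 were MAPK1IP1L (1.36 ± 0.09, adjusted p = 1.36e-08), MAPK6 (0.93 ± 0.08, adjusted p = 1.42e-07), DUSP19 (0.67), DUSP7 (0.39) and MAPK10 (0.20, lost after quantile normalization). DUSP7 thus stood closer between the RIPs than with DMSO, where its difference was 1.69. On the G3BP1 side MAP3K11 (-1.40 ± 0.10, adjusted p = 2.09e-08), MAP3K4 (-1.32 ± 0.15, adjusted p = 3.05e-06), MAP3K12 (-1.24 ± 0.13, adjusted p = 1.31e-06) and MAP3K6 (-1.13 ± 0.08, adjusted p = 1.81e-08) led. DUSP8 stood at -1.10, MAP2K3 at -1.09, MAP3K3 at -1.0, MAP4K4 at -0.79, MAPK7 at -0.75 and DUSP1 at -0.74.

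Of the members higher in the G3BP1 RIP 17 were called in both conditions (89.5% of 19 and 73.9% of 23), and of those higher in the TIAR RIP 4 (28.6% of 14 and 80.0% of 5). Scaling moved this split: median centring gave 12 members higher with TIAR and 16 with G3BP1, and quantile normalization 13 and 14. The directions of all named members held under both, and median centring shifted the median of all clusters from -0.05 to 0.17.

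**Figure D4:**
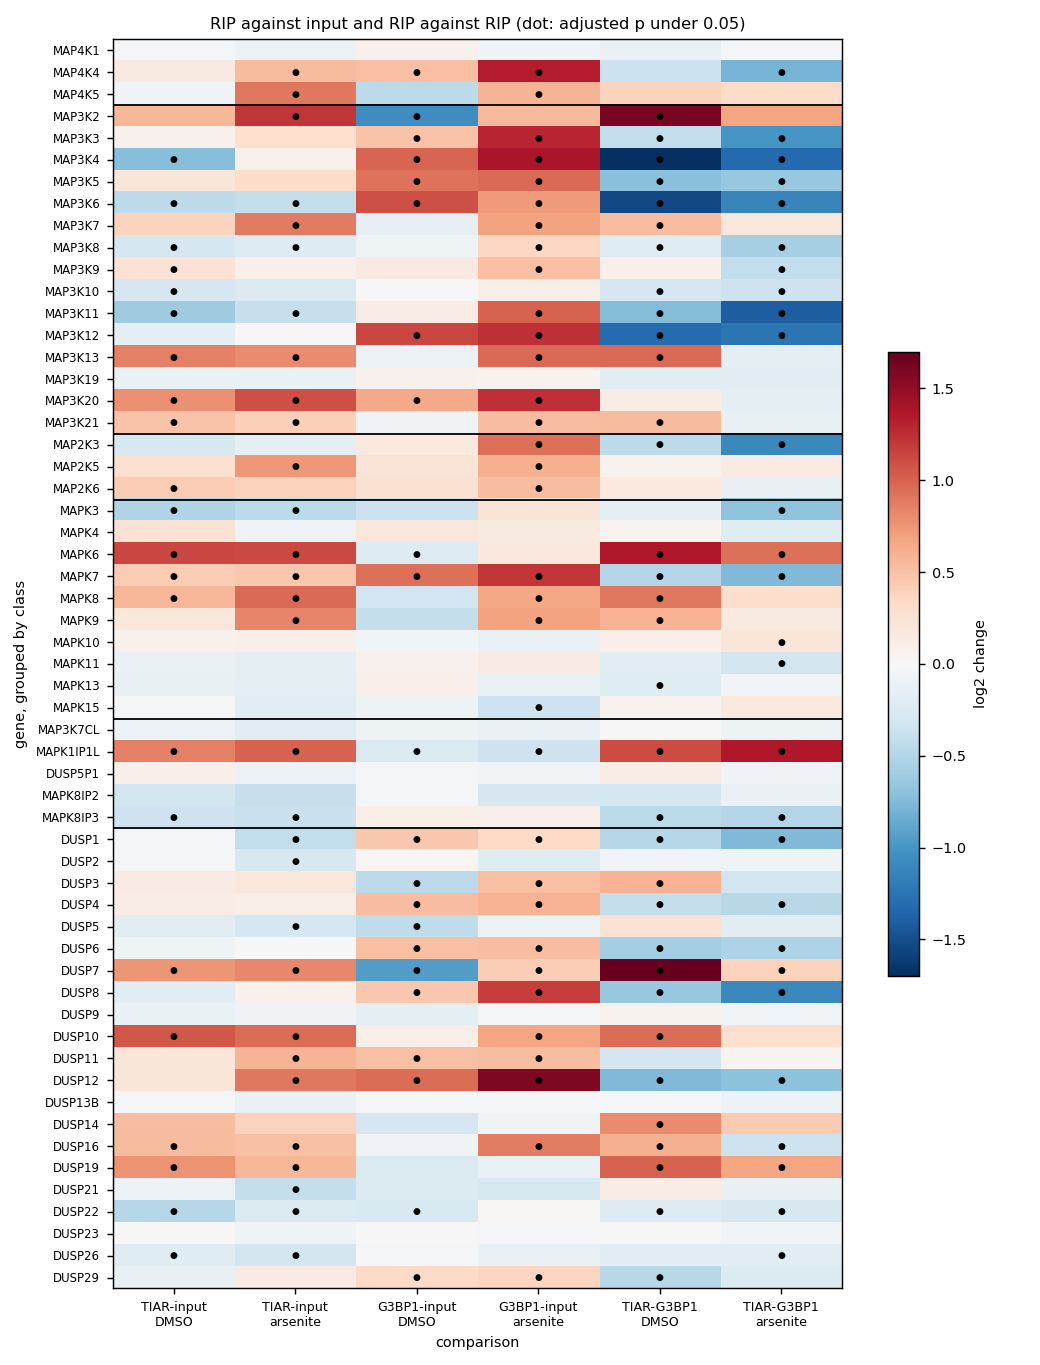
Log2 difference of the TIAR RIP and the G3BP1 RIP from input and from each other (horizontal axis, DMSO and arsenite) for each of the 57 members (vertical axis, grouped as MAP4K, MAP3K, MAP2K, MAPK, associated genes and DUSPs between the lines). Colour gives the difference from blue (lower in the fraction named first) to red (higher), and a dot marks an adjusted p under 0.05. The G3BP1 against input column with arsenite holds 31 dots on higher values.

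Kinases and phosphatases are set side by side for the arsenite comparisons. In input 16 of 31 kinases and 4 of 21 DUSPs were lower, in the TIAR RIP 8 and 4, and in the G3BP1 RIP 1 and none. Higher were none of the kinases and 1 DUSP in input and in the TIAR RIP, and 2 of each in the G3BP1 RIP. Within the DUSPs the 10 catalytic MAP kinase phosphatases (DUSP1, DUSP2, DUSP4 to DUSP10 and DUSP16) held 3 of the 4 lower calls in input and in the TIAR RIP, and all DUSP calls that were higher. The 11 atypical DUSPs held 1 lower call in each, DUSP3. The difference between the classes themselves was not tested.

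**Figure D5:**
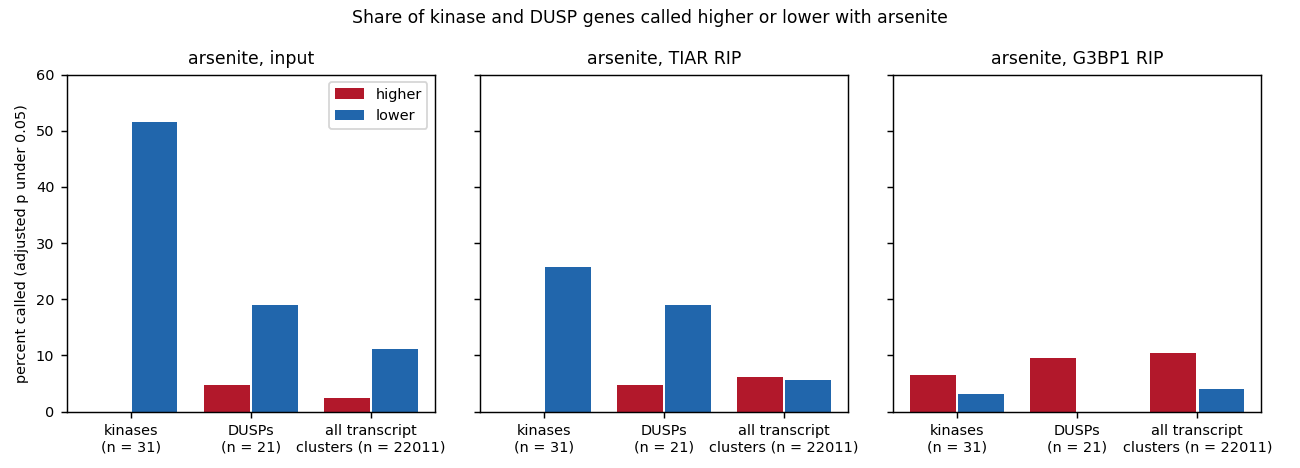
Percent of genes called higher (red) or lower (blue) with arsenite at an adjusted p under 0.05 (vertical axis) among 31 kinases, 21 DUSPs and all 22011 transcript clusters (horizontal axis) in input, TIAR RIP and G3BP1 RIP. The lower bar of the kinases in input stands for 16 of 31 genes, beside 11.2% of all clusters.

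Other genes of the pathway, from a list of 46 of which 37 were measured, were mostly lower in total RNA: 22 were lower and 1 higher with arsenite, against 11.2% and 2.52% of all clusters, the higher one the AP-1 gene JUN (0.41). Led by p, the MAP3K TAOK1 changed by -1.24, the MAPK-activated kinase MKNK2 by -0.71, the ERK pathway inhibitor SPRED1 by -1.22 and the phosphatase PPM1B by -0.79. In the TIAR RIP 14 were lower and 1, again JUN (0.40), higher, against 5.71% and 6.15% of all clusters, with the scaffold KSR2 (-0.66), the transcription factor ELK1 (-0.52), the kinase RPS6KA2 (-0.62) and SPRED1 (-1.20) in front. In the G3BP1 RIP 12 were higher and none lower, against 10.4% and 4.08% of all clusters, with the ERK targets ELK1 (0.89) and ELK4 (0.80), ARAF (0.55) and the p38 target MAPKAPK2 (0.64) in front. Beyond the input change none was called for TIAR, where TAB2 (0.99, adjusted p = 0.107) had the smallest p, and 19 were higher for G3BP1, against 14.3% of all clusters, led by ELK1 (1.30) and ELK4 (1.34). In the test of the TIAR against the G3BP1 response 17 were lower, against 8.55% of all clusters, ELK1 (-1.42) first.

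Against input the TIAR RIP held more of 18 pathway genes and less of 11 with DMSO, against 16.8% and 23.8% of all clusters. With arsenite it held more of 20 and less of 8, against 20.3% and 23.5%. TAB2 and TAB3, the adaptors of TAK1, were far higher with arsenite (2.56 and 2.25), and SPRED2 (1.56) and ELK4 (1.42) followed. The G3BP1 RIP held more of 6 and less of 11 with DMSO, against 20.7% and 19.2% of all clusters, and more of 25 and less of 4 with arsenite, against 29.3% and 15.2%. TAOK2 stood at 1.00 and 1.30, JUN at 1.66 and 1.27, and ELK1 at -1.97 and -0.67 in these comparisons. Between the RIPs 20 were higher with TIAR and 6 with G3BP1 in DMSO cells, against 19.3% and 27.5% of all clusters. In arsenite cells 11 and 10 were, against 15.6% and 28.7%, with TAB3 (2.68 and 1.83) on the TIAR side and JUN (-2.20 and -1.81) on the G3BP1 side in both.

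Of the 57 members 34 were called in none of the 3 arsenite comparisons and 9 in none of the 9 comparisons of a pair of groups: DUSP9, DUSP13B, DUSP23, DUSP5P1, MAP3K19, MAP3K7CL, MAP4K1, MAPK4 and MAPK8IP2. On the mean over all arrays 4 members (DUSP21, MAP3K19, MAP3K7CL and MAPK10) lay in the dimmest 25% of clusters, where a change is hard to detect, and 53 passed a filter at that level.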

How the data were processed

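RNA of 18 U251-MG samples was hybridised to exon arrays. The deposited values are log2 signals per transcript cluster, summarised with RMA in Affymetrix Expression Console per the submitters' processing notes. For their versions, and for whether all arrays were normalized together, no source used here gives an answer. Every column was mapped to a sample by its label. Gene names come from the platform annotation: 14432 of 22011 clusters carried 1 symbol, 2408 several and 5171 none. All 57 members matched a RefSeq symbol, and each had a single cluster. A model of 6 group means was fitted to all clusters with limma 3.58.1 in R 4.3.3 (lmFit, eBayes, two-sided, no block, 12 residual and 2.61 prior degrees of freedom), and p-values were adjusted by Benjamini-Hochberg over 22011 clusters in each of 12 comparisons. The fit was tested on simulated data. The replicates are biological per the labels, but nothing says that a number was shared between fractions, so p-values measure the spread between these samples.

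Named in each comparison of a pair of groups were up to 10 called members in each direction with the largest change, in each test of a difference of changes up to 10 called, a fixed set of well-known members with every array's value, and up to 4 pathway genes with the smallest p. The members and gene lists were chosen with earlier results of these data known. Alternatives were the replicate number as a block, median centring, quantile normalization, leaving out the dimmest 25% of clusters, array weights, and leaving out both arrays that stand apart or each array in turn. Averaging a gene's clusters was also run, but it left the fit unchanged because each member had a single cluster. Same-numbered arrays of different groups had deviations correlated at -0.405 to 0.416. Marker lists for astrocytes, neurons, myeloid cells, epithelia and oligodendrocytes gave the check of the cell type. Of the markers listed for neurons 5 of 7 were measured, for myeloid cells 5 of 6 and for epithelia 5 of 5.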

Additional observations from a re-analysis of the deposited data

Results flagged for a closer look

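Members whose arsenite response differed between fractions, by limma's test of the difference itself, are listed here with that difference on the log2 scale (adjusted p under 0.05 in each). Groups of 3 arrays are too small for a test of single outlying arrays.

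In the G3BP1 RIP against input, the arsenite change was more positive for MAP3K2 (1.60), DUSP7 (1.37), MAPK9 (1.09), MAP3K13 (1.06), MAP4K5 (1.02), MAPK8 (0.98), DUSP3 (0.95), DUSP16 (0.93), MAP3K11 (0.87) and MAP3K7 (0.83), and more negative for MAP3K6 (-0.37). With both arrays that stood apart left out, the values were 0.98 for MAP3K2, 0.66 for MAPK9, 0.70 for MAP3K13 (no longer called), 0.52 for MAP4K5, 0.58 for MAPK8 and 0.45 for MAP3K7.

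In the TIAR RIP against the G3BP1 RIP, the arsenite change was more negative for DUSP7 (-1.30), MAP3K13 (-1.11), DUSP16 (-0.95), DUSP3 (-0.90), MAP3K21 (-0.66), MAP3K11 (-0.66), MAP2K3 (-0.65), MAP3K9 (-0.51), DUSP8 (-0.45) and MAPK6 (-0.43), and more positive for MAP3K6 (0.41).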

How the results depend on the processing

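No called change of a named member took the opposite sign under any alternative. Splits and class medians depended on the scaling: TIAR against G3BP1 with DMSO had 14 members higher and 19 lower, but 20 and 13 with median centring and 17 and 12 after quantile normalization. The medians that changed sign include the DUSP median in input (-0.13, then 0.03 after quantile normalization) and that of the G3BP1 response beyond input (0.14, then -0.06). Apart from single arrays left out, counts of called members that moved by over 1.5 times were those of the arsenite response in the TIAR RIP (13, then 22 when arrays were weighted and 22 when both outlying arrays were dropped), of that in the G3BP1 RIP (5, then 12 and 9), of the TIAR against the G3BP1 response (12, then 23 and 20), and of the TIAR response beyond input (0, then 3 after quantile normalization and 3 under each of those other alternatives). Leaving out input DMSO replicate 3 also moved G3BP1 against input with DMSO from 22 to 14. Leaving out single arrays gave 15 to 22 members in input, 7 to 17 in the TIAR RIP and 3 to 7 in the G3BP1 RIP for arsenite, 22 to 34 and 17 to 26 for TIAR against input with and without arsenite, 25 to 35 and 14 to 23 for G3BP1 against input, 21 to 31 and 27 to 34 for TIAR against G3BP1, 0 to 2 and 13 to 19 for the TIAR and G3BP1 responses beyond input, and 9 to 15 for the TIAR against the G3BP1 response.

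Not every pair of same-numbered arrays deviated together, but differently numbered arrays were not compared. Whether arrays are paired by the replicate number is therefore not settled. With it as a block the counts were 20, 11 and 5 for arsenite in input, TIAR RIP and G3BP1 RIP, 28 and 21 for TIAR against input with and without arsenite, 31 and 19 for G3BP1 against input, 25 and 32 for TIAR against G3BP1, and 0, 19 and 12 for the differences of responses. Calls of named members held in 144 of 152 under the block and under median centring, 143 after quantile normalization, 151 under array weighting, 149 with both of those arrays left out, 150 of 150 without the dimmest clusters, 152 with averaged clusters and 2549 of 2736 with single arrays left out.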
